A study of Mus musculus with 4 samples.

Results

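Cytosolic ribosomal proteins were followed in the livers of Tm7sf2-KO and WT mice. They were taken as the genes whose name in the deposited annotation was Rpl or Rps followed by a number, with or without a closing a, l, x or y, together with Rplp0, Rplp1, Rplp2 and Rpsa. This gave 42 genes of 19504 with a name, read by 71 of 45037 probe sets. Where a gene had several probe sets, that with the highest mean signal was used. Of 81 protein-coding genes in a RefSeq gene table that fit this naming rule, 41 were named in the deposited annotation and 40 were not, among them Rps4x, Rpl39, Rplp0 and Rplp2. The member outside those 41 was Rps4l, which RefSeq lists as a transcribed pseudogene. The set is therefore a sample of the ribosome and not the whole of it.

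Total liver RNA of male mice aged 6 weeks had been hybridised to Affymetrix MOE430 v2 arrays, on which each probe set is a group of short oligonucleotides for 1 transcript region. The mutant mice were Tm7sf2-KO, a line that had been backcrossed to C57/B6, and the controls were WT mice labelled with the same strain. The mutant line lacks a sterol reductase that in most cell types tested lies mainly in the endoplasmic reticulum, with a nuclear envelope pool in several. There were 2 Tm7sf2-KO arrays and 2 WT arrays. Whether the 2 arrays of a genotype came from 2 mice is not stated, so the p-values measure only the variation among the 4 arrays, and this may be technical. In whole tissue fewer cells of a type and less RNA per cell cannot be told apart.

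A cytosolic ribosome joins a small subunit, which binds the mRNA and reads its codons, to a large subunit, which forms the peptide bonds. The subunits are built in the nucleolus from ribosomal RNA and ribosomal proteins, most of them present as a single copy. Mammalian ribosomal protein mRNAs begin with a cytosine followed by a run of pyrimidines, the TOP motif, through which their translation follows mTOR signalling. Hepatocytes, which make most plasma proteins, hold many ribosomes, and mouse ribosomal protein genes have left numerous processed pseudogenes in the genome.

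The promoters of the 5 protein-coding ribosomal protein genes with an unadjusted limma p under 0.05 are printed. None of the 5 was called by limma at 5% FDR. RefSeq promoters (build GRCm38.p6) were found for 30 of the 42 genes. Rps4l, the only gene of the 42 called at 5% FDR, had none. Each line gives 75 bases of the gene's own strand, 60 before the transcription start and 15 from the start onwards. Capitals mark CTTTCC, a pyrimidine stretch searched on the gene's strand, and CTTCCG or its reverse complement CGGAAG, the core of ETS-type elements, searched on both strands.
Rps27 (chr3:90213634-90213708, minus strand): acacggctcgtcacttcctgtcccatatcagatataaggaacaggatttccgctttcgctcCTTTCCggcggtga
Rpsa (chr9:120127706-120127780, plus strand): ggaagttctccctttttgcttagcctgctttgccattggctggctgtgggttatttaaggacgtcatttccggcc
Rps15 (chr10:80292371-80292445, plus strand): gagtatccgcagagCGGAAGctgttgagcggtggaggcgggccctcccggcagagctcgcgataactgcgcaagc
Rpl36a (chrX:134585594-134585668, plus strand): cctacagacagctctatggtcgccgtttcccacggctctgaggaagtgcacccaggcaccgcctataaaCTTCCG
Rpl15 (chr14:18270972-18271046, minus strand): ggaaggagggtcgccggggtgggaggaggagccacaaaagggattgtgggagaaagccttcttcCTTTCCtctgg

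In these lines Rps27 and Rpl15 carried CTTTCC at the start of transcription, Rps15 and Rpl36a carried the ETS-type core, and Rpsa carried neither within the stretch shown. Over the whole 300 bases of the table, all 5 held the ETS-type core. Among the 34 promoter entries of the 30 matched genes, 23 (67.6%) held CTTCCG on either strand, against 16.9% of 32851 mouse promoters of the same length. CTTTCC within 20 bases on either side of the start was present in 6 of the 34 (17.6%), against 1.95% of all promoters. Matches of the motifs can share at most 1 base, and a match describes the letters only. On the deposited scale, genes with higher values in KO (Rps27, Rpsa, Rps15, Rpl36a) and the gene with lower values (Rpl15) all held the ETS-type core.

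The KO was first checked at Tm7sf2 itself, which read 7.47 and 7.55 on the Tm7sf2-KO arrays and 10.25 and 10.27 on the WT arrays (log2) at 1 of its 2 probe sets. The change, KO minus WT, was -2.75 (limma adjusted p = 1.65e-06), and the other probe set gave 0.04. Across probe sets the correlation was 0.994 between KO arrays and 0.994 between WT arrays. The hepatocyte markers found (8 of 10) averaged 13.83 and 13.85 in KO and 13.85 and 13.86 in WT, and limma called 0 of them. No marker of Kupffer, lymphoid, endothelial, stellate or biliary cells was called. Of 6 proliferation markers 5 were lower at 5% FDR, with means of 6.78 and 6.72 in KO and 7.34 and 7.34 in WT, and 1 of 4 erythroid markers found was lower. The part of proliferating and erythroid cells in the ribosomal protein values was not tested.

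Ribosomal protein signals fell into a bright and a dim group. The deposited values are log2 signals, and the signal of a probe set depends on its probes, so the order of genes by signal is not an order of transcript amounts. Signals of 8 or more were read for 27 genes, between 8.57 and 13.31, and signals below 8 for 15 genes, between 6.01 and 7.26. No gene lay between 7.26 and 8.57. Signals of at least 10 were read for 24 of the 42 genes (57.1%), against 7.68% of all named genes. Both limits were set after the values were seen.

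The 5 highest signals belonged to Rps29, a small-subunit zinc-binding protein (mean 13.31), Rplp1 of the acidic stalk that recruits elongation factors (13.21), Rpl26 and Rpl31 near the exit of the peptide tunnel (13.06 and 12.95), and Rpl4, which lines that tunnel (12.87). Rps29 read 13.32 and 13.28 in KO and 13.27 and 13.35 in WT, so the genotypes overlapped. Rplp1 read 13.22 and 13.24 in KO and 13.18 in both WT arrays. The KO arrays were above the WT arrays for Rplp1, by a change of 0.05 that limma did not call (95% confidence interval -0.12 to 0.22, adjusted p = 0.853). Rpl26 read 13.13 and 13.14 in KO, against 13.00 and 12.99 in WT, again without overlap (change 0.14, limma adjusted p = 0.51).

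The 5 lowest signals were those of Rpl30 (6.01), the paralog Rpl39l (6.28), Rps20 (6.38), the paralog Rpl3l (6.39) and Rpl9 (6.40). Rpl30 read 5.97 and 6.04 in KO and 5.99 and 6.04 in WT, close to the lowest values on these arrays, which lay between 5.71 and 5.76. The kinds of probe set were counted in both groups. Probe sets whose ID ends in _a_at, _x_at or _s_at, which can read several transcripts or share probes with them, served 3 of the 15 dim genes and 21 of the 27 bright genes.

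**Figure D1:**
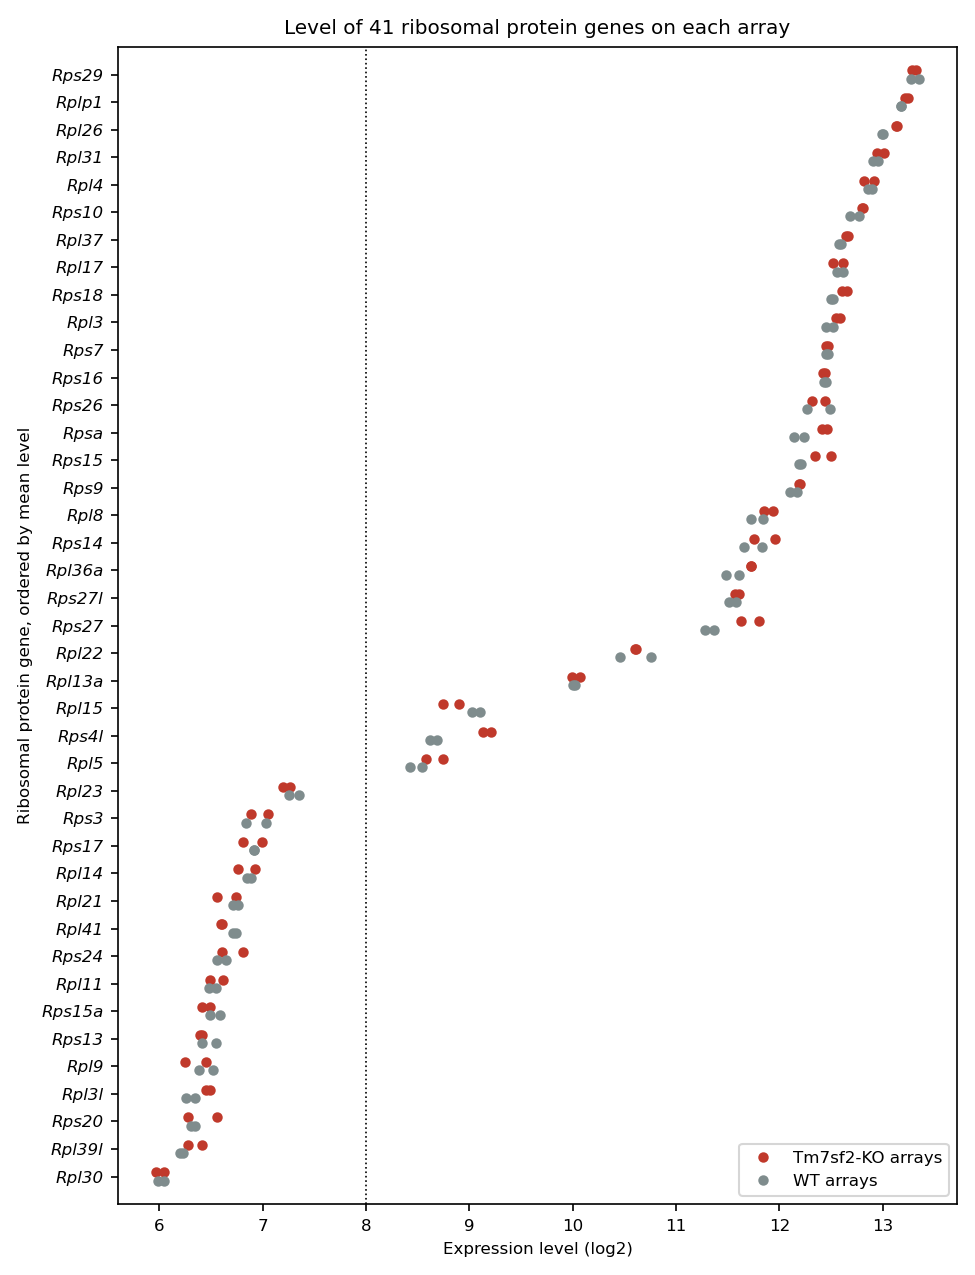
Log2 signal of 41 of the 42 ribosomal protein genes on the 2 Tm7sf2-KO arrays (red, upper row of a gene) and the 2 WT arrays (grey, lower row), with genes ordered by mean signal and a dotted line at 8. The 26 genes right of the line lie between 8.57 and 13.31 and the 15 left of it between 6.01 and 7.26. Both KO points lie to the right of both WT points for 16 of the 41 genes. The same held for 24.0% of all named genes and 37.7% of those with a signal of at least 10.

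Of the 42 ribosomal protein genes, 1 passed the test across all probe sets. At a false discovery rate of 5% (limma, Benjamini-Hochberg adjustment over all probe sets) 1 of the 42 genes was higher in KO, Rps4l (2.38%), and 0 were lower, whereas with arrays centred on added control transcripts 0 were higher and 36 lower, in a fit that called 40035 probe sets. Of all named genes 1.75% were called in either direction, 0.923% higher and 0.831% lower. Rps4l also passed the second threshold of the study's methods, an absolute log2 change of at least 0.5, as did 1.03% of all genes in either direction and 0.543% in the higher one. None of the 41 protein-coding members was called, while 4 were higher and 1 was lower at an unadjusted p under 0.05, shares set beside 8.39% and 6.79% of all genes. With Rps4l, 6 of 42 (14.3%) reached that p, against 15.2% of all genes.

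The precision of these values was read from the standard errors. The median standard error of a change was 0.081, which gave a 95% confidence interval of 0.18 on either side. For 40 of the 42 genes (95.2%) that interval lay within 0.5 of no change, a 1.41-fold difference, as it did for 94.5% of all genes. The exceptions were Rps4l and Rps27. The 40 were 25 of the 27 bright genes and all 15 dim genes. Signals of the dim genes (6.01 to 7.26) lay around the array medians of 6.66 to 6.67. There a narrow interval cannot show whether a transcript was unchanged. With arrays centred on added control transcripts the interval lay within 0.5 for 19 of the 42, so the count of 40 holds on the deposited scale.

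Rps4l is a paralog of Rps4x, whose product sits on the solvent side of the small subunit. It read 9.21 and 9.13 in KO and 8.62 and 8.69 in WT. Both KO arrays lay above both WT arrays, and the gap between genotypes was larger than either gap between replicates. The change was 0.51 (SE 0.08, 95% confidence interval 0.33 to 0.70, limma adjusted p = 0.0200). With any 1 of the 4 arrays left out, the change lay between 0.47 and 0.56 and was no longer called (limma adjusted p between 0.518 and 0.662), as was the case for each of the 45037 probe sets. With arrays centred on added control transcripts the change was 0.15 and was not called (limma adjusted p = 0.116). A single probe set read this gene, and which transcripts of the Rps4 family its probes match was not examined.

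Rps27, a zinc-finger protein of the small subunit, had the next largest difference. It read 11.80 and 11.63 in KO, against 11.28 and 11.37 in WT. The genotypes did not overlap, but the KO arrays themselves were 0.17 apart. The change was 0.39 (SE 0.09, 95% confidence interval 0.19 to 0.59), which limma did not call (adjusted p = 0.0853). With a variance prior that follows signal it was called (limma adjusted p = 0.0214). The change was 0.24 with both probe sets averaged (limma adjusted p = 0.218) and 0.03 with centring on added control transcripts (limma adjusted p = 0.786). A second, dim Rps27 probe set gave 0.09 (limma adjusted p = 0.736). The paralog Rps27l, a p53 target in human and mouse cells, read 11.61 and 11.57 in KO and 11.58 and 11.51 in WT, a change of 0.04.

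The next highest changes in the small subunit were those of Rpsa and Rps15. With arrays centred on added control transcripts they were -0.12 and -0.15, neither of them called (limma adjusted p = 0.219 and 0.147). Rpsa, which also occurs at the cell surface as a laminin receptor, read 12.41 and 12.46 in KO and 12.14 and 12.24 in WT, without overlap (change 0.25, limma adjusted p = 0.227). Its second probe set, with a signal of 6.16, gave -0.01. Rps15, at the decoding face of the small subunit, read 12.34 and 12.50 in KO and 12.19 and 12.21 in WT (change 0.22, limma adjusted p = 0.32). Here both probe sets were bright and both had the KO arrays above the WT arrays, the second with a change of 0.14.

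In the large subunit the highest changes were those of Rpl36a, Rpl5 and Rpl3l. Rpl36a, an X-linked protein near the site from which tRNA leaves, read 11.73 on both KO arrays and 11.48 and 11.61 in WT (change 0.18, limma adjusted p = 0.381). Rpl5, which with Rpl11 and 5S rRNA forms the particle that can bind Mdm2, read 8.58 and 8.74 in KO and 8.54 and 8.43 in WT (change 0.18, limma adjusted p = 0.451). Its partner Rpl11 read 6.49 and 6.62 in KO and 6.55 and 6.48 in WT, with overlap. Rpl3l, the striated-muscle paralog of Rpl3, read 6.45 and 6.49 in KO and 6.26 and 6.34 in WT (change 0.17, limma adjusted p = 0.426), while Rpl3, which lies near the peptidyl transferase centre, gave 0.09. Rpl39l, the testis paralog of Rpl39, gave 0.13 at a signal of 6.28, and none of these values was called.

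Rpl15, a large-subunit protein, had the most negative difference. It read 8.90 and 8.74 in KO and 9.03 and 9.10 in WT, without overlap. The change was -0.24 (95% confidence interval -0.44 to -0.05), which limma did not call (adjusted p = 0.27). The next most negative values were those of Rpl41 (-0.12), Rpl9 (-0.10), Rps15a (-0.09), Rpl21 (-0.08) and Rps13 (-0.08), all of which were dim. Of these, Rpl41, Rps15a and Rps13 had both KO arrays below both WT arrays, as did 17.8% of named genes with signals below 8.

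**Figure D2:**
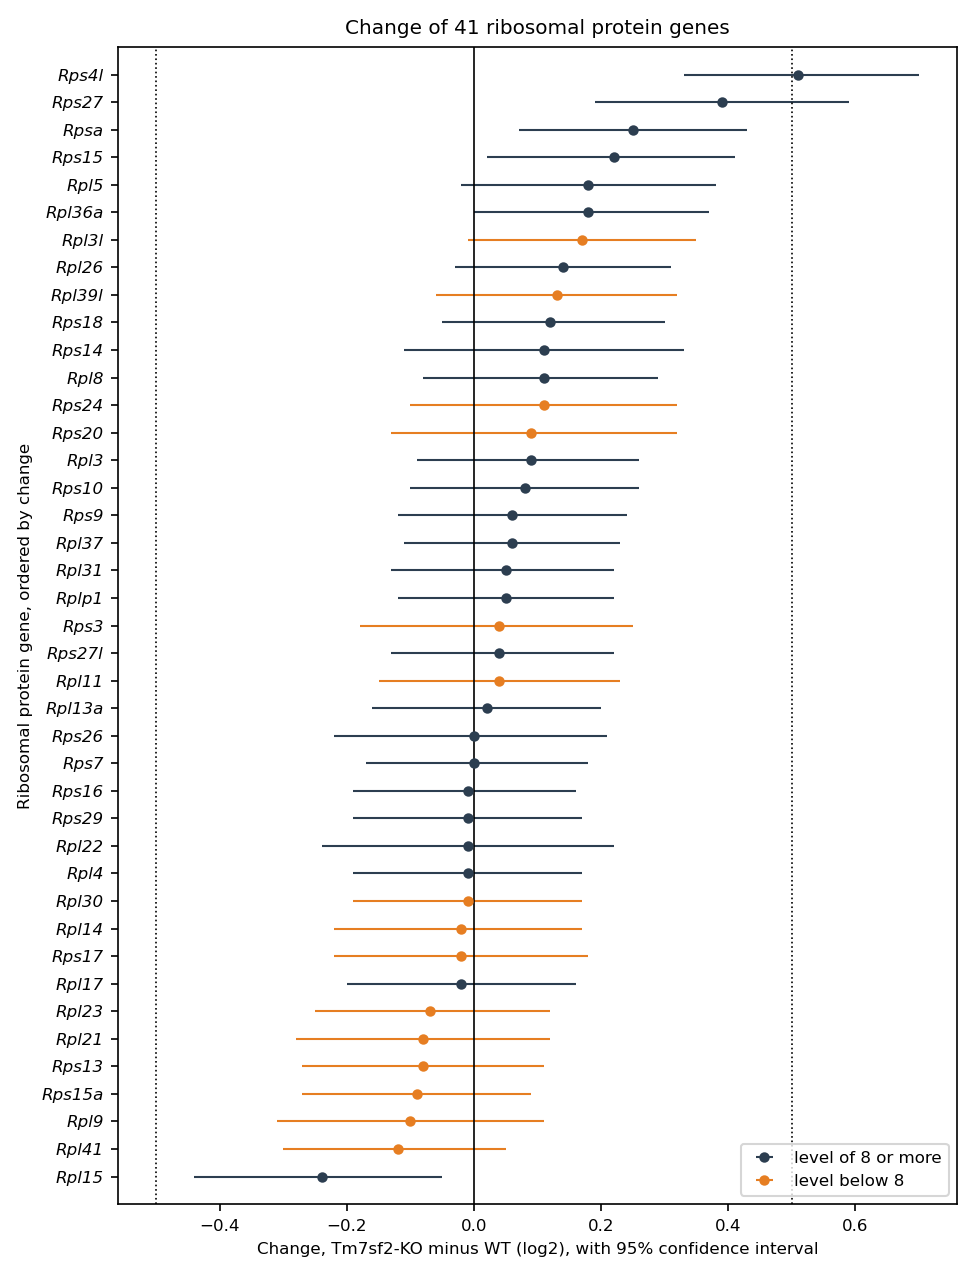
Change (KO minus WT, log2) of 41 of the 42 ribosomal protein genes, ordered from the most negative at the bottom, with the 95% confidence interval from limma as a line, bright genes in dark blue and dim genes in orange, and dotted lines at a change of 0.5 on either side. Rps4l at 0.51 is the only gene called at 5% FDR, and 39 intervals lie between the dotted lines on the deposited scale; centring on added control transcripts moves the whole plot down, to a median of -0.318.

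As a group the ribosomal proteins had a median change of 0.046, against 0.007 over all named genes, and a median of -0.318 against -0.357 when arrays were centred on added control transcripts. The changes ran from -0.24 to 0.51, with 26 above 0 (61.9%, against 52.4% of all genes) and 16 below. The KO arrays were both above the WT arrays for 17 genes (40.5%), against 24.0% of all genes, and both below for 4 genes (9.52%), against 19.9%. Measured from each gene's own mean, the median of the 42 genes was 0.022 and 0.035 on the KO arrays and -0.029 and -0.016 on the WT arrays. These group values are descriptions, since genes on the same arrays are not independent replicates.

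Genes with a signal of at least 10 were set against all named genes above that limit. Only the limit is shared: the median signal was 12.41 for the 24 members and 11.07 for the 1497 named genes, which include them. Among the 24 genes with a signal of at least 10, 18 had a change above 0, against 57.4% of the 1497 named genes that bright. The KO arrays were above the WT arrays without overlap for 13 of the 24 (54.2%), against 37.7% of genes that bright, and below for 0 of the 24, against 25.9%. Their median change was 0.06, against 0.026 for all genes that bright. At an unadjusted p under 0.05, 4 of the 24 were higher (16.7%), against 17.6% of genes that bright, and limma called 0 of the 24 at 5% FDR, against 5.74% of genes that bright. The 15 dim genes had a median change of -0.021, with 6 values above 0. On the scale of the added control transcripts the named bright genes Rpsa, Rps15, Rpl36a and Rpl26 were below 0.

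By subunit, the 20 small-subunit genes had a median change of 0.071 and the 22 large-subunit genes one of 0.03, and the difference between subunits was not tested. Around the peptide exit tunnel 5 of 9 listed proteins were named, and they lay between -0.02 (Rpl17) and 0.14 (Rpl26). Along the mRNA channel and decoding face 4 of 7 were named. Rps26, which contacts mRNA upstream of the start codon, read 12.44 and 12.32 in KO and 12.27 and 12.49 in WT, with overlap. Across the 42 genes the correlation of signal with change was 0.25, and it was -0.12 across the 24 bright ones, given as descriptions over genes that share the same arrays.

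Probe sets of the same gene often disagreed. Of the 42 genes 16 had 2 or more probe sets, and in 11 of them the changes differed in sign. The widest ranges were those of Rps27 (0.09 to 0.39), Rps9, a protein at the entry of the mRNA channel (-0.19 to 0.08), Rpsa (-0.01 to 0.25), Rpl17 (-0.13 to 0.12) and Rps18, in the head of the small subunit (-0.02 to 0.19). In Rps9 the probe set with a signal of 12.16 read 12.19 and 12.20 in KO and 12.10 and 12.17 in WT, while the one with a signal of 6.55 read 6.49 and 6.41 in KO and 6.71 and 6.58 in WT. Rps18 had 3 bright probe sets, all with the KO arrays above the WT arrays, and 2 with signals near 6.2.

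Many ribosomal protein signals stood under the names of pseudogenes. The deposited annotation gave names such as Rpl15-ps3 to 36 probe sets (23 names), and 35 of them had signals between 10.21 and 13.18. The name says which locus the annotation chose, and which transcripts the probes match was not examined here. The 35 bright probe sets had a median change of 0.089, and 27 were above 0 (77.1%), against 57.4% of named genes with a signal of at least 10. At an unadjusted p under 0.05, 4 were higher and 0 lower. These shares were 17.6% and 12.3% of named genes that bright, and 7.08% and 5.96% of all probe sets. Limma called 0 of the 35 at 5% FDR, against 5.74% of named genes that bright and 1.25% of all probe sets. Some names hold several of the 35, so they are not separate genes.

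In 7 families both a gene-named and a pseudogene-named probe set were present. Rpl30, Rpl14, Rps13, Rps15a and Rpl9 were dim under the gene name, and each had a probe set with a signal of at least 10 under a pseudogene name, between 11.61 (Rps13-ps4) and 12.58 (Rpl9-ps6). For Rpl15 the direction depended on the probe set. The probe set named Rpl15-ps3 read 11.99 and 11.92 in KO and 11.77 and 11.72 in WT, a change of 0.21 (95% confidence interval 0.04 to 0.39, limma adjusted p = 0.288), whereas that named Rpl15 gave -0.24. For Rpl5 it was the reverse, with 0.18 under the gene name and -0.05 under Rpl5-ps1. Rpl14-ps1 had 5 probe sets with changes between 0.04 and 0.30, of which WT replicate 1 was the lowest array in each.

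**Figure D3:**
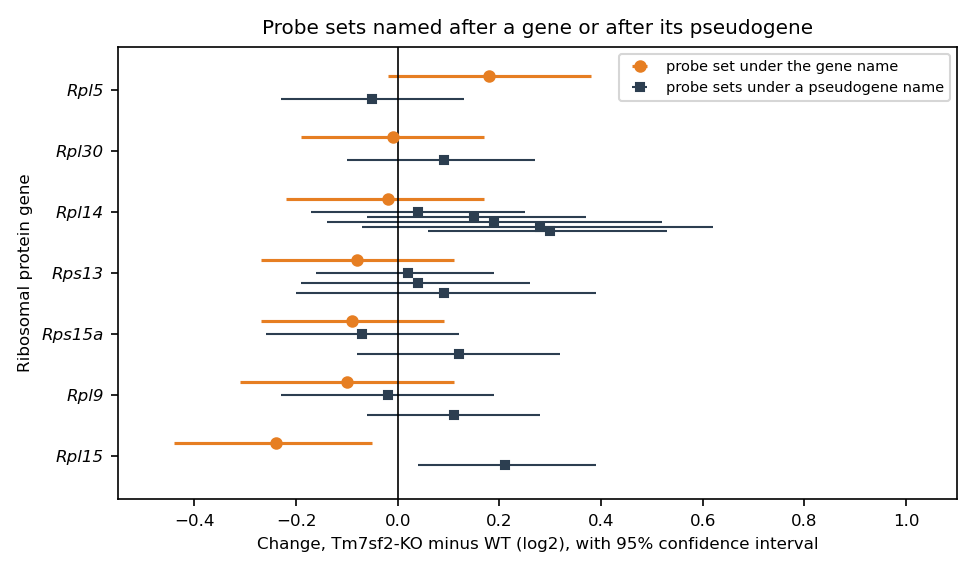
Change (KO minus WT, log2, with the 95% confidence interval from limma) in the 7 families with a probe set under the gene name (orange circles) and 1 or more under a pseudogene name (dark squares). The Rpl15 intervals lie on opposite sides of 0, at -0.24 under the gene name and 0.21 under Rpl15-ps3, and none of the values plotted was called; centring on added control transcripts moves every value down by the same amount.

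Few genes of the lists around the ribosome were called. Of the other TOP mRNAs and elongation factors 11 of 14 listed genes were found, with a median change of 0.018. At 5% FDR 1 gene of these was higher and 0 were lower, against 0.923% and 0.831% of all genes. The higher 1 was Hnrnpa1, an RNA-binding protein with a TOP mRNA. It read 9.03 and 8.98 in KO and 8.55 and 8.60 in WT (change 0.43, limma adjusted p = 0.0374). With any 1 array left out the change was 0.40 to 0.45. The call was lost in a fit with a replicate block (limma adjusted p = 0.0693) and with centring on added control transcripts (change 0.06, limma adjusted p = 0.495). Eif4b, an initiation factor with a TOP mRNA, gave 0.20, and Nap1l1, a histone chaperone, gave -0.21, neither of them called. With probe sets averaged these were 0.10 and -0.12.

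Among 35 of 36 listed translation initiation factors limma called 0 in either direction at 5% FDR, against 1.75% of all genes (median -0.02). At an unadjusted p under 0.05, 4 were higher (11.4%, against 8.39% of all genes) and 3 lower (8.57%, against 6.79%). The shares over all genes, here and for the lists below, are not matched for signal. They were 5.49% and 4.96% for named genes with signals below 8, and 17.6% and 12.3% for those of at least 10. Eif3e, a subunit of the scaffold that joins the small subunit to mRNA, read 10.87 and 10.80 in KO and 10.48 and 10.47 in WT (change 0.36, limma adjusted p = 0.0684). It was called with a variance prior that follows signal (limma adjusted p = 0.0195) and with dim probe sets left out (0.0429). The change was 0.13 with _x_at and _s_at probe sets left out (limma adjusted p = 0.537), 0.28 with probe sets averaged (0.124) and -0.00 with centring on added control transcripts (0.988). Eif1, which guards start codon choice, gave 0.25, and Eif4g1, the scaffold of the cap-binding complex, gave -0.25.

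Of the genes that control translation through mTOR 21 of 22 were found, with 0 calls at 5% FDR, 4 higher (19.0%, against 8.39% of all genes) and 0 lower (against 6.79%) at an unadjusted p under 0.05, and a median of -0.013. The lowest p-values were those of Tsc1, a brake on mTOR complex 1 (0.36, limma adjusted p = 0.0884), Eif4ebp1, the cap-binding repressor that mTOR inactivates (0.24), and Sesn1, an inhibitor of mTOR complex 1 (0.25). When all probe sets of a gene were averaged, Tsc1 gave 0.11.

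Ribosome production was read through polymerase I and assembly factors. Of 18 RNA polymerase I genes found (of 20 listed), 1 was higher and 1 lower at an unadjusted p under 0.05 (5.56% each, against 8.39% and 6.79% of all genes) and limma called 0 at 5% FDR. Polr2f, a subunit shared by the nuclear polymerases, gave 0.30 (limma adjusted p = 0.131), Rrn3, the factor that brings polymerase I to the ribosomal DNA, gave -0.30 (limma adjusted p = 0.137), and Myc gave 0.17. Of 97 assembly factors found (of 106 listed) limma called 0, with 7 higher (7.22%, against 8.39% of all genes) and 8 lower (8.25%, against 6.79%) at an unadjusted p under 0.05 and a median of -0.003. Nolc1, a nucleolar phosphoprotein, read 7.73 and 7.71 in KO and 8.10 and 8.02 in WT (change -0.34, limma adjusted p = 0.0884), Nol11 of the early processing complex gave -0.27 (-0.07 with its probe sets averaged), and Tsr3, which modifies 18S rRNA, gave 0.27.

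A further gene, chosen after its values were seen, was called at 1 of its probe sets. Of all probe sets 1.25% were called at 5% FDR. Rpl7l1, a relative of Rpl7 outside the naming rule, read 8.17 and 8.16 in KO and 8.61 and 8.57 in WT at the second brightest of its 3 probe sets (change -0.42, limma adjusted p = 0.0358). The brightest gave -0.33 (limma adjusted p = 0.117) and the dimmest 0.05.

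The mitochondrial ribosome is built from its own set of nuclear-encoded proteins. For 71 of these the median change was 0.05, with 44 above 0 (62.0%). At an unadjusted p under 0.05, 12 were higher (16.9%, against 8.39% of all genes) and 3 lower (4.23%, against 6.79%). Limma called 0 at 5% FDR, against 1.75%. The 71 had a median signal of 9.14, against 7.04 for all named genes, and shares at this p rise with signal. Of named genes below 8, 5.49% were higher and 4.96% lower, and of those of at least 10, 17.6% and 12.3%. Mrpl1 gave 0.39, Mrps35 gave 0.34 and Mrps23 gave -0.35. With all probe sets of a gene averaged, Mrpl1 gave 0.09, Mrps35 0.34 and Mrps23 -0.18. The median and the share above 0 were close to those of the cytosolic proteins (0.046 and 61.9%). On the scale of the added control transcripts Mrps35 was at -0.02 and Mrpl1 at 0.03.

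**Figure D4:**
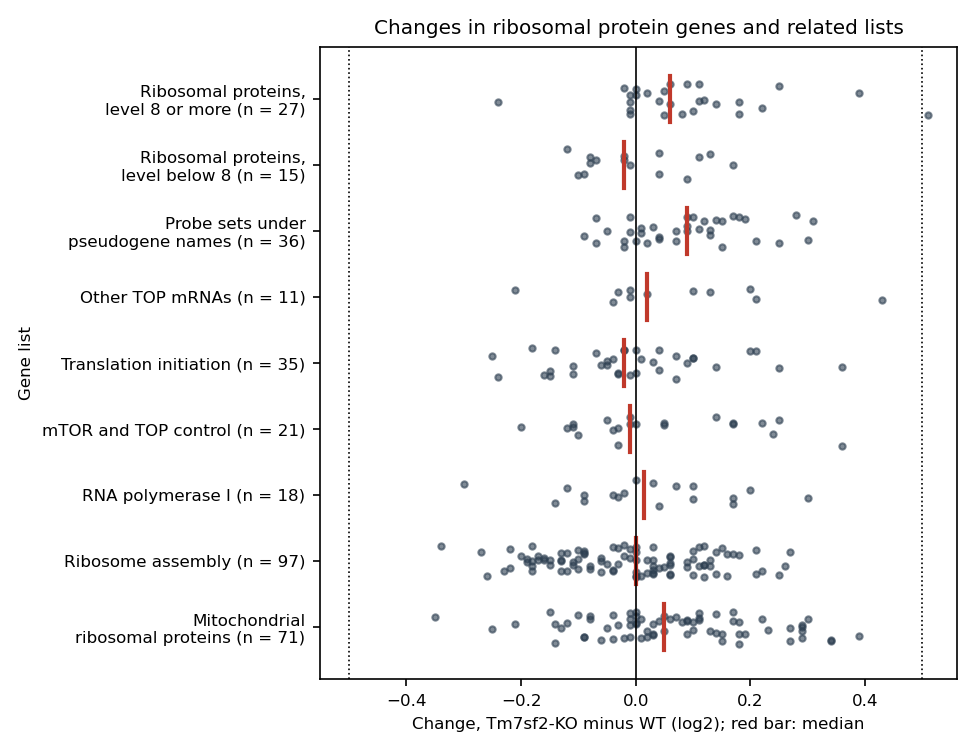
Change (KO minus WT, log2) of each gene or probe set in the ribosomal protein groups and the related lists, 1 point each, with the median as a red bar and dotted lines at 0.5 on either side. Medians lie between -0.021 (ribosomal proteins with a signal below 8) and 0.089 (bright pseudogene-named probe sets, plotted with the 1 dim one), and Rps4l at 0.51 is the only point outside the dotted lines; with arrays centred on added control transcripts the plotted lists have medians between -0.384 and -0.274.

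The arrays also carry control probe sets for 18S rRNA, the RNA of the small subunit, which were outside the limma test. The 5' probe set read 9.18 and 9.11 in KO and 7.96 and 7.93 in WT, the middle one 8.21 and 8.04 in KO and 7.69 and 7.80 in WT, and the 3' one 8.32 and 8.15 in KO and 7.74 and 7.92 in WT. All 3 had both KO arrays above both WT arrays, and the differences were 1.20, 0.39 and 0.40. Control transcripts added to each sample were higher in KO by 0.36 on average, close to the middle and 3' values. For endogenous mRNA controls the 3' signal exceeded the 5' signal by more in KO for Actb (by 0.18), Gapdh (by 0.12) and pyruvate carboxylase (by 0.33), and by less for the TransRec control (by -0.15). The part of RNA quality in the ribosomal protein values was not tested. Whether the 18S signals follow the amount of 18S rRNA in the liver was not tested either.

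**Figure D5:**
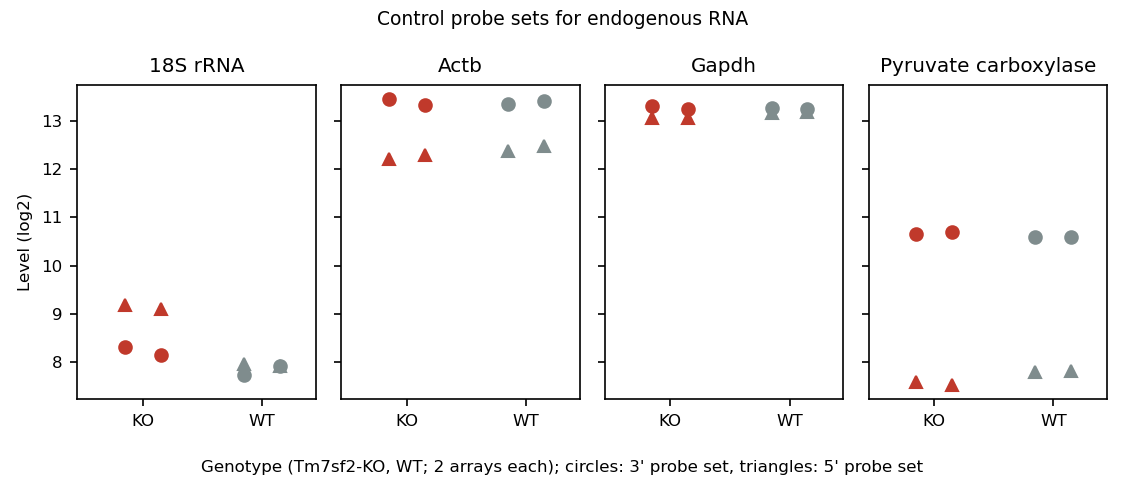
Log2 signal of the 3' (circles) and 5' (triangles) control probe sets for 18S rRNA, Actb, Gapdh and pyruvate carboxylase on the 2 Tm7sf2-KO arrays (red, left) and the 2 WT arrays (grey, right). The 18S rRNA 5' probe set stands at 9.18 and 9.11 in KO and at 7.96 and 7.93 in WT, and for pyruvate carboxylase the distance from circle to triangle is wider in KO.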

How the data were processed

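Affymetrix MOE430 v2 arrays of liver RNA were used, 2 Tm7sf2-KO and 2 WT, grouped by the genotype in the labels. The values deposited by the authors are log2 signals per probe set, normalised by quantiles; the processing notes name affy and limma, and which background correction was applied is not given in the sources used. A table deposited by the authors also holds their log2 ratio of KO over WT and adjusted p-values, which were not used; gene names were taken from it.

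After removal of 64 AFFX controls, KO and WT were compared at 45037 probe sets by limma (version 3.58.1, R 4.3.3), using lmFit with no covariate, eBayes, two-sided p-values and Benjamini-Hochberg adjustment over all probe sets. Residual degrees of freedom were 2 and prior degrees of freedom 7.3, so precision is limited by the number of arrays. The script was tested on simulated data. The smallest exact permutation p for this design is 0.333, so that test was not used. Changes are KO minus WT and relative to the bulk of genes. Named genes were those past 5% FDR, the 6 highest and 6 lowest changes, the 5 highest and 5 lowest signals, the paralogs, the 5 genes with the widest disagreement between probe sets, and up to 3 genes per related list. Members and lists were chosen with earlier results of these data known. Alternatives were other normalisation, centring, variance models, a filter on dim probe sets, a replicate block, other choices of probe set and leaving out each array. Promoters and their coordinates came from RefSeq (GRCm38.p6), as did gene types. Of the 42 genes, 1 is counted in the group values and is not reported here by name.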

Additional observations from a re-analysis of the deposited data

Results flagged for a closer look

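The control probe sets for 18S rRNA lay outside the main measurement and read higher on both KO arrays than on both WT arrays. The differences, KO minus WT, were 1.20 for the 5' probe set, 0.40 for the 3' probe set and 0.39 for the middle one, on the log2 scale and without a test. Whether they follow the amount of 18S rRNA was not tested. Control transcripts added to the samples differed by 0.36 in the same direction, 0.39 for those added at hybridisation and 0.35 for the poly-A ones.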

How the results depend on the processing

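The count of ribosomal protein genes higher at 5% FDR (1) was unchanged under repeated quantile normalisation, median centring, a robust variance, dim probe sets left out (33 of the genes remained in the fit), averaging of all probe sets of a gene, and _x_at and _s_at probe sets left out (37 genes). It was 2 with a variance trend, through Rps27. With 1 array left out it was 0 in each case, as was the count over all probe sets (564 with 4 arrays), and the median change (0.046) lay between 0.037 and 0.06. The median was 0.036 after repeated quantile normalisation, 0.03 with averaged probe sets and 0.036 without _x_at and _s_at probe sets. Across probe sets, replicate 1 minus replicate 2 had a correlation of -0.0368 between KO and WT. That value shows no strong effect shared by replicate number, but it cannot settle whether the arrays were paired. With the number as a replicate block 346 probe sets were called, 1 ribosomal protein gene was higher (Rps4l, limma adjusted p = 0.0412), and Hnrnpa1 was no longer called (limma adjusted p = 0.0693).

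Centring on added control transcripts moved the median of all genes to -0.357. It gave 40035 called probe sets, 0 ribosomal protein genes higher and 36 lower, and a median of -0.318. Rps4l then had 0.15 (limma adjusted p = 0.116) and Rps27 0.03. Changes that turned negative there were those of Rpl26 (-0.23), Rpl3 (-0.28), Rpl31 (-0.32), Rpl36a (-0.18), Rpl39l (-0.23), Rpl3l (-0.20), Rpl5 (-0.18), Rplp1 (-0.31), Rps15 (-0.15), Rps18 (-0.24), Rps20 (-0.27), Rps27l (-0.32), Rps9 (-0.30), Rpsa (-0.12), Eif4b (-0.17), Eif3e (-0.00), Eif1 (-0.12), Eif4ebp1 (-0.12), Sesn1 (-0.12), Polr2f (-0.06), Myc (-0.19), Tsr3 (-0.10) and Mrps35 (-0.02). Rps9 also turned negative with averaged probe sets (-0.02) and without _x_at and _s_at probe sets (-0.19), and Rpl31 in the second case (-0.03). The cause was not tested. Of the 26 ribosomal protein genes recomputed under each alternative, 6 had changes that crossed 0 with 1 array left out, with ranges of -0.17 to 0.01 for Rpl21, -0.04 to 0.02 for Rpl30, -0.06 to 0.04 for Rpl4, -0.05 to 0.23 for Rps20, -0.07 to 0.03 for Rpl17 and -0.05 to 0.03 for Rps29.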
